A study of Homo sapiens with 60 samples.

Results

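Clones F7 and G6 are 2 clones of human HEK293A cells in which the gene TDP1 had been targeted with CRISPR/Cas9, and the libraries compared here are those made from them without any drug. They were chosen by their labels: 8 libraries of F7 (4 untreated and 4 in 0.1% DMSO) and 8 libraries of G6 (4 untreated and 4 in 0.1% DMSO), 16 of the 60 libraries of the study. HEK293A is an adherent subline of HEK293, a line made from human embryonic kidney by transformation with adenovirus DNA. Every group carried the TDP1 knockout and was grown in medium with fetal bovine serum, and treatment lasted 5 to 5.5 hours. Poly(A) RNA was sequenced. Another 24 libraries of F7 and G6 had been given 100 nM topotecan, 5 µM OL9-119 or both, and the remaining 20 are those of the clone C6, 8 of them without drug. The difference between F7 and G6 is a difference between 2 lines, each labelled as 1 clone. It does not measure the effect of the knockout, since both are labelled as carrying it and unedited parent cells were not analysed here. The sample titles do not describe the edited alleles of either clone. Vehicle was held as a factor, so each change is F7 minus G6 over untreated and DMSO libraries.

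TDP1 (tyrosyl-DNA phosphodiesterase 1) removes topoisomerase I that has become stuck to DNA, and topotecan makes such lesions. A clone is grown up from 1 cell, so a chance state of that cell can be passed to all its progeny. Such states include silent promoters, kept off by DNA methylation and compact chromatin, and gains or losses of chromosome segments, which are frequent in HEK293 cells. HEK293 cells express genes of the embryonic kidney together with neuronal and neural crest genes, and the lineage lists below were drawn up with this in mind.

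Total counts per library ran from 5220831 to 19798101 in F7 and from 6861816 to 18845903 in G6. At a common depth of 4500000 counts, 21561 to 23640 genes were detected per F7 library, against 18383 to 22304 per G6 library. The lowest G6 values, 18383 and 19208 genes, belonged to the DMSO and untreated libraries of replicate 1. The first principal component, 35.8% of the variance, separated the clones. On it G6 replicate 1 lay farthest from F7 and G6 replicate 4 nearest, so the G6 libraries were spread more widely than those of F7. Genes of low level lay higher in F7 on balance: the median log2 change was 0.37 over the 1075 tested genes with a mean under 1 CPM (counts scaled to a library of 1000000, on TMM effective library sizes). It was -0.05 over the 3960 genes above 64 CPM. The part that detection plays in low-level differences was not tested. Sample titles call the libraries of each group biological replicates, without saying whether they came from separate cultures. P-values measure the spread between these libraries, which may be partly technical.

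TDP1 itself (ENSG00000042088, chromosome 14) was transcribed in both clones. Its lowest, median and highest levels were 23.5, 27.2 and 29.1 CPM in F7 libraries, against 26.1, 30.9 and 38.7 CPM in G6 libraries, and the ranges overlapped. The gene was lower in F7 by a small margin (log2 -0.23 ± 0.08, adjusted p = 0.0336), a call that was lost in 14 of 22 alternative fits. A gene count includes reads from every exon, so it does not test an edited exon. TOP1, the topoisomerase that topotecan traps, had 391, 435 and 504 CPM in F7 libraries, against 378, 499 and 545 CPM in G6 libraries. The difference did not pass the test (log2 -0.12 ± 0.07, adjusted p = 0.181), and within the libraries whose names begin with L03 it ran the other way (log2 0.21, adjusted p = 0.0204). Without G6 replicate 4, the G6 replicate in L03, TOP1 was called lower in F7 (log2 -0.20, adjusted p = 0.00529, edgeR). The labels do not say what the name prefixes L01, L02 and L03 stand for.

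Of 17275 genes tested, 35.9% differed between the clones at an adjusted p under 0.05. The share was 16.9% (2921 genes) for higher in F7 and 19% (3285 genes) for lower in F7. The counts of gene lists below are to be read beside these shares. Most differences were small, with quartiles of log2 change at -0.24 and 0.28 around a median of 0.01. Changes of at least 2-fold were called for 576 genes higher in F7 (3.33%) and for 295 lower (1.71%). The libraries of the clones did not overlap for 10.4% of genes. In 866 genes (5.01%) every F7 library lay above every G6 library, and in 923 (5.34%) every F7 library lay below. Leaving out G6 replicate 4 gave 4038 genes higher and 3924 lower. Within the 3 name prefixes the counts were 1376 higher and 1762 lower in L01, 2225 higher and 2443 lower in L02, and 2687 higher and 3160 lower in L03. L01 holds replicate 1 only of F7, and L03 holds replicate 4 only of G6. L02 holds replicate 2 only of F7 and replicate 3 only of G6. There the untreated and DMSO libraries of 1 replicate number stand as the replicates of a clone. Of the 225 genes named in the text, 37 lost their call within L01, 25 within L02 and 32 within L03, each with fewer libraries. The DMSO and untreated libraries of 1 replicate number may not be independent: within G6 replicate 4 their deviations from the group means correlated at 0.84, and over the replicates of both clones at -0.25 to 0.84. With the 2 vehicles of each replicate summed, 1986 genes were higher and 2476 lower.

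The sharpest differences were genes with several CPM in 1 clone and almost none in the other. A strict limit, at least 1 CPM in each library of 1 clone and under 0.2 CPM in each library of the other, left 1 gene on in F7 and off in G6, EEF1AKMT1, and 0 genes the other way. In bulk RNA, fewer cells that express a gene and less RNA per cell cannot be told apart. Single reads decide such a limit, so a pooled one was added after seeing the data: called, at least 1 CPM in each library of 1 clone, and under 0.3 CPM over the pooled counts of the other. It found 17 genes near-silent in G6 and 5 near-silent in F7. Without the 2 G6 libraries of low detection it found 18, of which 16 were shared with the 17, and 9, of which 5 were shared with the 5. All 17 and all 5 were also called in the same comparison among libraries under drug. The plot of near-silent genes shows each of the 16 libraries.

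**Figure D1:**
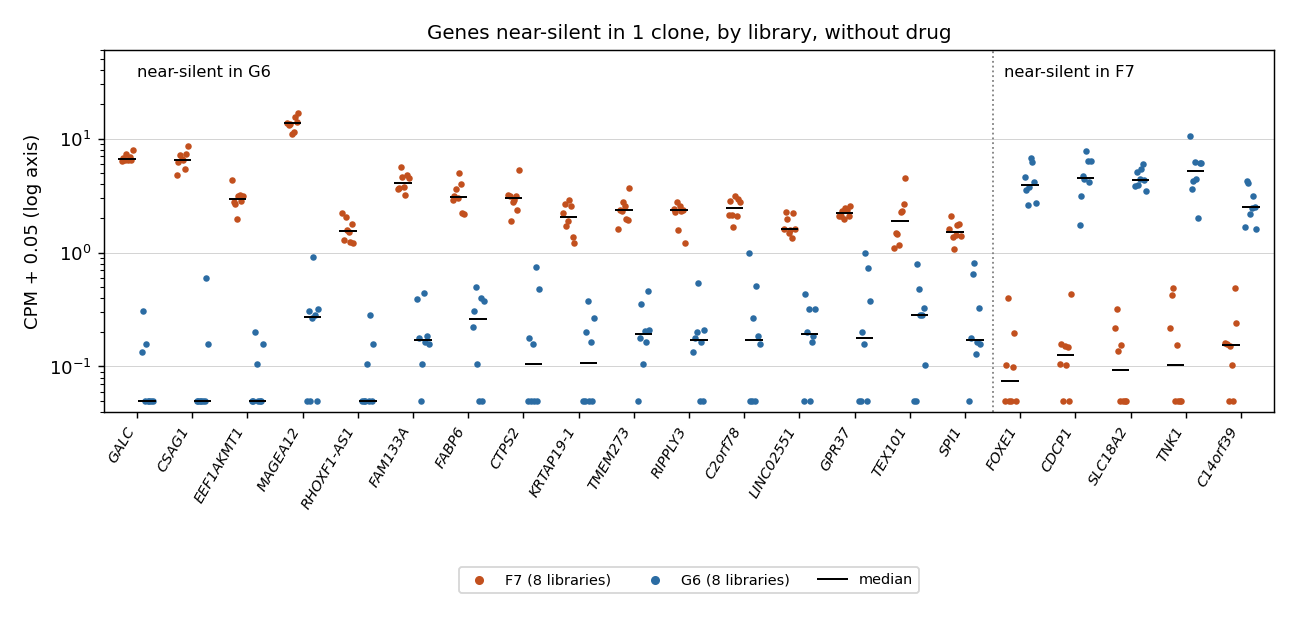
Level of near-silent genes in CPM + 0.05 on a log axis, 1 point per library (8 of F7 left, 8 of G6 right), with a bar at the median. The 16 genes shown on the left sit at 1 CPM or more in every F7 library and near 0 in G6, and the 5 on the right show the opposite.

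The 17 genes near-silent in G6 include cancer-testis genes of the X chromosome. MAGEA12 (ENSG00000213401), a member of the melanoma antigen family that is normally restricted to germ cells, had 10.9, 13.6 and 16.8 CPM in F7 libraries, against 0, 0.223 and 0.860 CPM in G6 libraries. Its neighbour CSAG1 (ENSG00000198930), another cancer-testis gene, had 4.76, 6.48 and 8.49 CPM in F7 libraries, against 0, 0 and 0.548 CPM in G6 libraries. The 2 genes face away from each other, 0.044 kb apart, and pooled counts in F7 exceeded those in G6 51.4-fold (95% interval 34.4 to 80.5) for MAGEA12 and 94.5-fold (95% interval 43.2 to 259) for CSAG1, intervals that cover counting error only. Of the 17, 6 lie on the X chromosome, which holds 618 of the 17275 genes tested. Beside MAGEA12 and CSAG1 they include FAM133A, RHOXF1-AS1 and CTPS2, which encodes a CTP synthase. These 5 stood at or near 0 in most G6 libraries.

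Other genes near-silent in G6 have metabolic roles. GALC (ENSG00000054983, chromosome 14), the lysosomal enzyme that breaks down galactosylceramide, had 6.26, 6.60 and 7.91 CPM in F7 libraries, against 0, 0 and 0.256 CPM in G6 libraries, a ratio of 122.9-fold (95% interval 52.4 to 379.7). EEF1AKMT1, a lysine methyltransferase of translation elongation factor 1A, had 1.94, 2.91 and 4.32 CPM in F7 libraries, against 0, 0 and 0.1501 CPM in G6 libraries. CTPS2 had 1.84, 2.95 and 5.21 CPM in F7 libraries, against 0, 0.0541 and 0.691 CPM in G6 libraries. GALC, CTPS2 and FABP6 also had at least 1 CPM in each of the 8 drug-free libraries of C6. Of the 17, 10 had a median under 0.3 CPM in C6, MAGEA12 and CSAG1 among them. The remaining members include FABP6 (ileal bile acid-binding protein), TEX101 (a germ cell surface protein), SPI1 (the blood lineage factor PU.1) and KRTAP19-1, one of a family of closely similar keratin-associated genes whose reads the counting could split. The nearest tested genes differed from case to case. KRTAP19-5 beside KRTAP19-1 stood at log2 2.31, XPO4 beside EEF1AKMT1 at 0.93 and CD177 beside TEX101 at 0.92, whereas NAP1L3 beside FAM133A stood at -0.85. A gene without a symbol that overlaps GALC stood at 2.14, and reads from overlapping genes cannot be told apart where strand is not stated. The median over the 17 of the median change of the 10 nearest tested genes was 0.00.

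The 5 genes near-silent in F7 are FOXE1, CDCP1, SLC18A2, TNK1 and C14orf39. FOXE1 (ENSG00000178919, chromosome 9), a forkhead factor of thyroid development, had 0, 0.0248 and 0.350 CPM in F7 libraries, against 2.55, 3.89 and 6.73 CPM in G6 libraries, with no overlap. CDCP1 (ENSG00000163814, chromosome 3), a surface glycoprotein phosphorylated by Src kinases, had 0, 0.0773 and 0.386 CPM in F7 libraries, against 1.70, 4.49 and 7.67 CPM in G6 libraries. SLC18A2 (ENSG00000165646, chromosome 10), the vesicular monoamine transporter, had 0, 0.0438 and 0.268 CPM in F7 libraries, against 3.44, 4.31 and 5.99 CPM in G6 libraries. Pooled G6 counts exceeded F7 counts 65.3-fold (95% interval 31.4 to 164) for FOXE1, 60.02-fold (95% interval 31.3 to 132) for CDCP1 and 43.7-fold (95% interval 24.2 to 88.3) for SLC18A2. TNK1, a non-receptor tyrosine kinase, and C14orf39, a protein of the synaptonemal complex, followed at medians of 5.20 and 2.44 CPM in G6. FOXE1, CDCP1 and TNK1 had at least 1 CPM in each drug-free C6 library, and SLC18A2 and C14orf39 had C6 medians under 0.3 CPM.

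The sequences before the transcription starts of near-silent genes are shown because the 2 sets differed in CG dinucleotides, the sites of DNA methylation. RefSeq (GRCh38.p14) windows were matched for 11 of the 17 genes near-silent in G6 and for all 5 near-silent in F7, taking the start nearest to the 5′ end in GENCODE. Within the 250 bases before the start, CG (which reads the same on both strands) occurred 1 to 17 times in the 11 windows (median 3) and 19 to 33 times in the 5 (median 22). The median over 11361 tested protein-coding genes was 21, with quartiles of 13 and 28, and 99.1% held at least 1 CG. The share over all 35116 windows of the same length was 93.9%. The genes were picked by their expression, several have more than 1 start, and methylation was not measured, so this is a description with no test. CG is in capitals in each sequence, written 5′ to 3′ on the strand of the gene. The windows are chrX:152733507-152733756 (plus strand) for MAGEA12, chrX:152733722-152733971 (minus) for CSAG1, chr21:30480368-30480617 (minus) for KRTAP19-1, chr9:97852976-97853225 (plus) for FOXE1, chr3:45146379-45146628 (minus) for CDCP1, chr10:117240864-117241113 (plus) for SLC18A2 and chrX:101418028-101418277 (plus) for ARMCX4, described in the next paragraph. The first 3 belong to genes near-silent in G6, the next 3 to genes near-silent in F7, and those of MAGEA12 and CSAG1 share 35 bases on opposite strands.
MAGEA12: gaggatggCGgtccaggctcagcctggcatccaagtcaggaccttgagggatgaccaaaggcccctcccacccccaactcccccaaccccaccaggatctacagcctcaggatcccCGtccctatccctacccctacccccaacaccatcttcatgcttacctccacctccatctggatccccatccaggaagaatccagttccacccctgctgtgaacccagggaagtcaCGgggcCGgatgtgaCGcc
CSAG1: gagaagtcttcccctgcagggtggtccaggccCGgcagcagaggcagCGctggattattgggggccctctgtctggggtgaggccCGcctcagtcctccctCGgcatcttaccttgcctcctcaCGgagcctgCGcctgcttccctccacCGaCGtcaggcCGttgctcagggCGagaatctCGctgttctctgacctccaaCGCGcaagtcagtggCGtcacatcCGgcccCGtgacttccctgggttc
KRTAP19-1: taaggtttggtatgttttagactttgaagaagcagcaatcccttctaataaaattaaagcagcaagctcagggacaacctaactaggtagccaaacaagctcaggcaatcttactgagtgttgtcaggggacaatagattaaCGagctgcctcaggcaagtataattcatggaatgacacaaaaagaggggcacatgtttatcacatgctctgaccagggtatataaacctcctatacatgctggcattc
FOXE1: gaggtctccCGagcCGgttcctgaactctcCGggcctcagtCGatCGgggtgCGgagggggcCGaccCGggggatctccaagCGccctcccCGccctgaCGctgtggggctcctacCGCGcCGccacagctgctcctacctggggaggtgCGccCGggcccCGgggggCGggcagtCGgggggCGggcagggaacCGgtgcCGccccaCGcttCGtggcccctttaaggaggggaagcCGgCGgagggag
CDCP1: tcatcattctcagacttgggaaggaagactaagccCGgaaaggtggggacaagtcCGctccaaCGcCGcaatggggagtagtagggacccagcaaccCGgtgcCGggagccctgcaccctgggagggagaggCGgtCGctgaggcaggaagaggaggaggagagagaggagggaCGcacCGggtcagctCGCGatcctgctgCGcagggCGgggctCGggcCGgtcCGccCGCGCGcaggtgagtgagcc
SLC18A2: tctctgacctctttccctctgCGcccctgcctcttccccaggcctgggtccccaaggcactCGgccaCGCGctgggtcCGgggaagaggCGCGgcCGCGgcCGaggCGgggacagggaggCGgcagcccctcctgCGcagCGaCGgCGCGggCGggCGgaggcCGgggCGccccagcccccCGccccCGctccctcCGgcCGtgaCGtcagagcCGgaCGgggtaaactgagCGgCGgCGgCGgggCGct
ARMCX4: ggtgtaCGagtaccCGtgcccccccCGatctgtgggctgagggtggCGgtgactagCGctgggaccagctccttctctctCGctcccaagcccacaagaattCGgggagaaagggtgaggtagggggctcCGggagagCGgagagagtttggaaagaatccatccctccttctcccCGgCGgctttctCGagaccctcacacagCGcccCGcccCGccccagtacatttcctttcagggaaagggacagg
The MAGEA12 window holds 5 CG, that of CSAG1 16 and that of KRTAP19-1 1. Those of FOXE1, CDCP1 and SLC18A2 hold 26, 20 and 33, and that of ARMCX4 holds 15.

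Among protein-coding genes of at least 8 CPM in the higher clone whose libraries did not overlap, the largest decreases in F7 were led by ARMCX4 (ENSG00000196440), an armadillo repeat gene of the X chromosome. It had 0, 0.251 and 0.644 CPM in F7 libraries, against 13.96, 16.1 and 20.4 CPM in G6 libraries (log2 -5.59 ± 0.23, adjusted p = 2.31e-13). GIPC3, a PDZ protein needed for hearing, had 0.175, 0.411 and 0.590 CPM in F7 libraries, against 6.80, 9.77 and 11.1 CPM in G6 libraries. DLGAP1, a scaffold of the postsynaptic density, had 0.332, 0.452 and 0.858 CPM in F7 libraries, against 5.85, 7.89 and 10.1 CPM in G6 libraries. ULK2, a kinase that starts autophagy, was not silent in F7 but stood far lower there, with 2.36, 3.40 and 4.02 CPM in F7 libraries, against 24.8, 26.2 and 29.3 CPM in G6 libraries (log2 -3.01 ± 0.11, adjusted p = 1.88e-14). The 12 also held SYTL5, GPRASP1, COCH, H3Y1, MEIOC, LAYN and MANEAL, with log2 changes of -2.16 to -1.70. Of these, COCH encodes cochlin of the inner ear and MEIOC acts in germ cell meiosis.

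The 12 largest increases in F7 included MAGEA12 and CDH1. CDH1, the epithelial adhesion molecule E-cadherin, had 9.87, 13.1 and 16.5 CPM in F7 libraries, against 0.600, 1.03 and 1.87 CPM in G6 libraries (log2 3.62 ± 0.18, adjusted p = 6.12e-12). Every F7 library lay above every G6 library for both genes, by the rule that chose them. ACTBL2, an actin-like gene, had 336, 369 and 455 CPM in F7 libraries, against 53.1, 60.2 and 74.2 CPM in G6 libraries. Also among the 12 were KRTAP21-2, UNC13A (synaptic vesicle priming), IL7R (interleukin 7 receptor), ARMCX2, VGLL3 (a cofactor of TEAD factors), MAGEC2, ENO3 (muscle enolase) and BIRC3 (an inhibitor of apoptosis induced by NF-kB), with changes of 2.38 to 1.70. Not every gene of a family moved alike: on the X chromosome ARMCX2 was higher in F7 (log2 2.13) while ARMCX4 and GPRASP1 (log2 -2.01) were lower.

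Cancer-testis and germline genes moved both ways. Of 60 listed, 14 were tested, 4 were higher and 3 lower, beside 16.9% and 19% of all genes. MAGEC2 was higher in F7 (16.9, 20.3 and 21.6 CPM in F7 libraries, against 1.96, 5.42 and 6.54 CPM in G6 libraries), whereas MAGEC1, also on the X chromosome, was lower (0.290, 0.601 and 0.893 CPM in F7 libraries, against 4.62, 5.83 and 6.75 CPM in G6 libraries). MAGEB2 was lower (log2 -1.82) and LIN28B, a repressor of let-7 microRNA processing, was higher (log2 0.70). Reads of closely similar MAGE genes could have been shared among them. Imprinted genes, expressed from 1 parental allele, had 1 higher and 6 lower of 19 tested and a median of -0.28. GNAS, which encodes the stimulatory G protein alpha subunit, was lower in F7 with no overlap (836, 861 and 909.7 CPM in F7 libraries, against 1207, 1237 and 1360.0 CPM in G6 libraries). CDKN1C (log2 -0.89) and the neighbours PEG10 (log2 -0.89) and SGCE (log2 -0.55) were lower too, and GRB10 (log2 0.35) was higher.

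Markers used to check HEK293 identity were mostly present in both clones, with 13 of 14 tested, and 7 were lower and 1 higher in F7. VIM, the intermediate filament vimentin, had 235, 263 and 286 CPM in F7 libraries, against 436, 467 and 502 CPM in G6 libraries (log2 -0.84 ± 0.04, adjusted p = 1.08e-11). SOX2, a stem cell and neural factor, had 12.3, 14.3 and 15.4 CPM in F7 libraries, against 18.3, 23.9 and 28.6 CPM in G6 libraries. INA, the neuronal filament alpha-internexin, was at 0.464 CPM in F7 libraries, against 2.67 CPM in G6 libraries in the median. Markers of cell types that the cultures should lack were read as a check. Of 12 blood markers 6 were tested, and the summed level of the 12 was 7.72 to 13.9 CPM in F7 and 3.65 to 12.5 CPM in G6, with 2 higher in F7, SPI1 and ITGAM, and 0 lower. For 10 fibroblast markers the sums were 33.5 to 48.4 CPM in F7 and 18.4 to 46.4 CPM in G6, for 8 endothelial markers 8.49 to 13.8 CPM in F7 and 3.99 to 13.4 CPM in G6, and for 8 hepatocyte markers 1.54 to 2.63 CPM in F7 and 0.806 to 4.49 CPM in G6. Of these, the fibroblast markers LUM and PDGFRB were higher in F7, by log2 1.23 and 1.49, calls that did not hold throughout. LUM lost its call without F7 replicate 4 (log2 0.88, adjusted p = 0.0653, edgeR), within L01 and L02 and in untreated libraries alone. PDGFRB lost its call within each name prefix, with a prefix block, in DMSO libraries alone, with summed vehicles, and without F7 replicate 1, 2 or 4 or G6 replicate 2. The part of such markers in the lineage results was not tested.

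Genes of kidney development were shifted in part. The renal list had 4 higher and 8 lower of 22 tested, beside 16.9% and 19% of all genes. Its median was 0.14 but had no stable sign, at -0.04 in untreated libraries, 0.01 in DMSO libraries and -0.08 within L03. EYA1, a transcription cofactor of early kidney induction, was lower in F7, with 6.397 CPM in F7 libraries, against 11.6 CPM in G6 libraries in the median. EMX2, a homeobox factor of the urogenital system, was lower as well (10.2, 11.7 and 13.7 CPM in F7 libraries, against 15.97, 19.1 and 24.1 CPM in G6 libraries). CITED1, a marker of the nephron progenitor cap, was higher (9.26, 12.2 and 13.4 CPM in F7 libraries, against 3.65, 6.20 and 8.70 CPM in G6 libraries), a call lost within L03 (log2 0.45).

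Neuronal genes had 4 higher and 9 lower of 27 tested, beside 16.9% and 19% of all genes, with a median of -0.07. Within L02 they had 5 higher and 5 lower, with a median of 0.08. The RNA-binding protein ELAVL2 had 0.447, 0.585 and 1.11 CPM in F7 libraries, against 2.15, 2.68 and 5.08 CPM in G6 libraries (log2 -2.19 ± 0.27, adjusted p = 3.14e-06). The dendritic protein MAP2 had 5.08, 7.08 and 10.8 CPM in F7 libraries, against 11.7, 16.3 and 20.7 CPM in G6 libraries, with no overlap. ENO2, neuron-specific enolase, was lower (log2 -0.86), while the tubulin TUBB3 was higher (2.89, 4.39 and 5.66 CPM in F7 libraries, against 0.235, 1.24 and 2.30 CPM in G6 libraries). Transcription factors of the nervous system and neural crest had 2 higher and 5 lower of 30 tested, a share below that of all genes. SOX2, ZIC5 (log2 -0.65), ID4 (log2 -0.45) and TFAP2A (log2 -0.36) were lower.

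HOX genes, which mark position along the body axis, had 10 higher and 7 lower of 34 tested, beside 16.9% and 19% of all genes. HOXD9, HOXD10 and HOXD13 of the HOXD cluster were lower in F7, at log2 -0.82, -0.71 and -0.35. HOXB9 and HOXC13, of the HOXB and HOXC clusters, were higher, by 0.35 and 0.51. HOXD9 lost its call within L01 and L02, HOXD13 within L01 and L03, HOXB9 within L02 and L03, and HOXC13 within L01. In untreated libraries alone HOXD13, HOXB9 and HOXC13 were not called.

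Epithelial genes had 6 higher and 7 lower of 23 tested, beside 16.9% and 19% of all genes, with a median of 0.21. Beside CDH1, the tight junction genes CLDN1 (34.7, 39.6 and 44.9 CPM in F7 libraries, against 14.9, 21.4 and 30.3 CPM in G6 libraries) and TJP3 (log2 1.29) and the factor GRHL1 (log2 0.69) were higher in F7. CLDN4 (log2 -0.63) and the splicing factor ESRP1 (log2 -0.92) were lower. TJP3 lost its call within L03 (log2 0.46) and in untreated libraries alone. ESRP1 lost its call within each name prefix, and CLDN4 within L01, within L02 (log2 -0.19) and in DMSO libraries alone. The median was 0.50 within L01 and 0.31 within L02 but -0.11 within L03. Mesenchymal genes had 5 higher and 6 lower of 26 tested, near the 16.9% and 19% of all genes. Besides VIM, the myosin light chain MYL9 was lower with no overlap (6.37, 8.22 and 9.69 CPM in F7 libraries, against 18.7, 23.7 and 27.4 CPM in G6 libraries). LOX, which cross-links collagen, was lower in F7 (log2 -0.85) and LUM, a matrix proteoglycan, was higher from a low level (log2 1.23), with the losses of call given above.

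Clustered protocadherins, neuronal adhesion molecules each of which is switched on by its own promoter on chromosome 5, had the lowest median of the lists in the plot of list shares. The counts were 1 higher and 23 lower of 39 tested, beside 19% of all genes called lower, with a median of -0.67. PCDHA10 had 3.34, 4.20 and 4.82 CPM in F7 libraries, against 8.85, 12.1 and 13.8 CPM in G6 libraries (log2 -1.53 ± 0.13, adjusted p = 1.06e-08). PCDHGB5 had 4.49, 5.16 and 7.33 CPM in F7 libraries, against 11.7, 14.6 and 16.1 CPM in G6 libraries. PCDHGA11, PCDHB11, PCDHB10 and PCDHB2 were lower, at log2 -0.87 to -0.48. Alpha and gamma members share their last exons, so reads there cannot be tied to 1 member. The median was -0.65, -0.53 and -0.61 within L01, L02 and L03, and 17 members were called lower without G6 replicate 4.

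**Figure D2:**
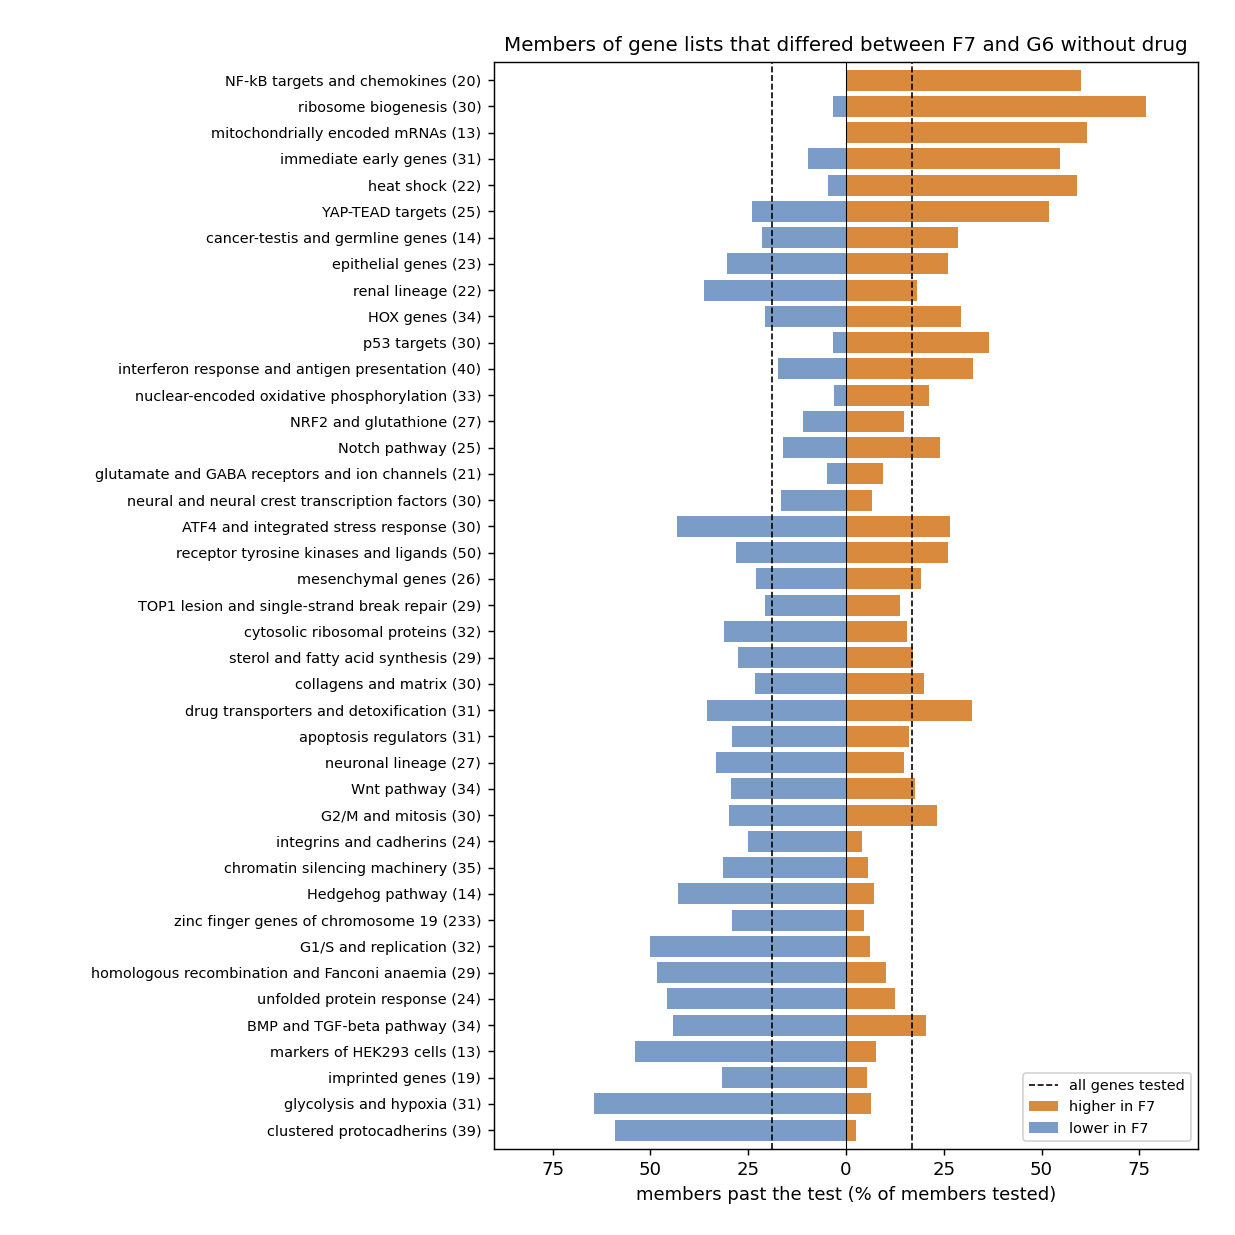
Share of tested members called higher (right) or lower (left) in F7 than in G6, for lists with at least 12 tested members (number in brackets), in order of median change. Dashed lines mark all genes tested, 16.9% higher and 19% lower.

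Collagen and matrix genes had 6 higher and 7 lower of 30 tested, near the share of all genes, and 5 higher and 12 lower within L03. The basement membrane collagens COL4A1 and COL4A2, neighbours on chromosome 13, were both lower in F7. COL4A1 had 38.04, 43.7 and 60.4 CPM in F7 libraries, against 88.002, 96.7 and 107.4 CPM in G6 libraries and COL4A2 had 78.7, 88.9 and 98.8 CPM in F7 libraries, against 135, 159.7 and 207 CPM in G6 libraries. LAMA1 (laminin), COL6A3 and COL12A1 were higher, by log2 0.87, 1.07 and 0.68. Integrins and cadherins had 1 higher and 6 lower of 24 tested, beside 16.9% and 19% of all genes. ITGA4 was lower with no overlap (log2 -0.85), and ITGB1, the common beta subunit, was lower, at log2 -0.39, but at -0.09 with no call within L03.

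NF-kB targets and chemokines, which NF-kB factors switch on after inflammatory signals, were higher in F7 throughout the calls: 12 higher and 0 lower of 20 tested, with a median of 0.57. The subunit gene NFKB2 had 135, 157 and 168 CPM in F7 libraries, against 60.9, 72.2 and 83.3 CPM in G6 libraries (log2 1.11 ± 0.07, adjusted p = 4.41e-10). BIRC3 had 33.8, 39.4 and 57.1 CPM in F7 libraries, against 10.5, 12.9 and 15.8 CPM in G6 libraries (log2 1.70 ± 0.11, adjusted p = 3.94e-10). The partner subunit RELB, the adhesion molecule ICAM1 and the feedback inhibitor TNFAIP3 were higher by log2 1.19, 1.20 and 0.96, each with no overlap. The median lay at 0.47, 0.65 and 0.60 within L01, L02 and L03. Among libraries under drug, 7 of these genes were higher and 8 lower in F7, with a median of 0.02, and TNFAIP3 did not pass (log2 -0.10). Whether the clone difference depends on drug was not tested.

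Interferon response and antigen presentation genes moved both ways (13 higher and 7 lower of 40 tested, and 8 higher and 9 lower within L03). The factor IRF1 was higher in F7 (31.9, 37.1 and 39.2 CPM in F7 libraries, against 15.9, 20.88 and 24.1 CPM in G6 libraries), as was the peptide-loading protein TAPBP (log2 0.69). BST2, the membrane tether of budding viruses, was lower (34.2, 42.4 and 49.9 CPM in F7 libraries, against 81.6, 97.99 and 120.3 CPM in G6 libraries). Immediate early genes, which growth signals induce within minutes, had 17 higher and 3 lower of 31 tested, with a median of 0.27. Within L03 there were 8 higher and 6 lower (median 0.15). The MAP kinase phosphatases DUSP5 (60.8, 65.8 and 74.7 CPM in F7 libraries, against 28.8, 34.4 and 39.3 CPM in G6 libraries) and DUSP6 (log2 0.77) and the AP-1 members FOSL1 (log2 0.72) and FOSB (log2 0.69, not called within L03 at log2 0.26) were higher. DUSP2 went the other way (0.726, 2.01 and 2.74 CPM in F7 libraries, against 3.13, 8.03 and 9.96 CPM in G6 libraries).

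YAP-TEAD targets, which respond to cell shape and density, had 13 higher and 6 lower of 25 tested. ANKRD1, a standard readout of YAP, had 506, 641 and 858 CPM in F7 libraries, against 258, 292 and 367 CPM in G6 libraries (log2 1.08 ± 0.10, adjusted p = 5.2e-08). CRIM1 (log2 1.04), TGFB2 (log2 1.51) and VGLL3 were higher as well. The receptor kinase AXL was lower (4.99, 6.13 and 7.44 CPM in F7 libraries, against 11.04, 19.5 and 22.3 CPM in G6 libraries), as was the factor TEAD2 (log2 -0.88).

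In the BMP and TGF-beta pathway the counts were 7 higher and 15 lower of 34 tested. For this and the other pathways here, 16.9% and 19% of all genes stand beside the counts. Of the ligand genes, 3 were higher in F7: BMP2 (140.3, 157 and 179.6 CPM in F7 libraries, against 50.6, 57.2 and 72.5 CPM in G6 libraries), TGFB2 (14.3, 18.1 and 21.6 CPM in F7 libraries, against 4.28, 6.34 and 8.21 CPM in G6 libraries) and INHBA (log2 1.20). The ligand subunit INHBB (log2 -0.99), the antagonist GREM1 (log2 -0.74) and the receptor BMPR1A (log2 -0.49) were lower. In the Wnt pathway (6 higher and 10 lower of 34 tested) the receptors FZD1 (log2 -0.74), FZD7 (log2 -0.37) and FZD10 (log2 -1.16) were lower, and the inhibitors DKK1 (log2 0.84) and NKD2 (29.7, 43.2 and 50.3 CPM in F7 libraries, against 10.6, 16.1 and 25.7 CPM in G6 libraries) were higher. Hedgehog genes had 1 higher and 6 lower of 14 tested. The ligand SHH was higher in F7 (17.1, 18.7 and 20.7 CPM in F7 libraries, against 4.49, 7.77 and 10.95 CPM in G6 libraries), while the receptor PTCH1, itself a target of the pathway, was lower (log2 -0.39) along with the co-receptors GAS1 (log2 -0.62), CDON (log2 -0.40) and BOC (log2 -0.40). PTCH1 and GAS1 lost their calls within L01 and in DMSO libraries alone, and CDON within L01 and L03. BOC lost its call within L01 and L02 and in untreated libraries alone. The Hedgehog median was -0.16, but -0.03 within L02 and 0.004 in untreated libraries. Notch pathway genes had 6 higher and 4 lower of 25 tested, 40% called beside 35.9% of all genes, and 4 higher and 7 lower within L03. Of these, NOTCH1 (log2 0.54, not called within L03 at log2 0.06), the ligand JAG1 (log2 0.55) and the feedback regulator NRARP (log2 0.73) were higher, and the ligand JAG2 (log2 -0.53, and -0.32 without G6 replicate 4) and the target HEY1 (log2 -0.59) were lower.

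Receptor tyrosine kinases and their ligands were split (13 higher and 14 lower of 50 tested, beside 16.9% and 19% of all genes). EGFR was higher in F7 (76.02, 83.4 and 94.7 CPM in F7 libraries, against 47.4, 54.6 and 61.5 CPM in G6 libraries) and EPHB2 was higher (log2 0.61). ROR2 (log2 -0.98), FGFR2 (log2 -0.43) and the ligand PDGFC (log2 -0.65) were lower. Of glutamate and GABA receptors and ion channels, 2 were higher and 1 lower of 21 tested, below the share of all genes.

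**Figure D3:**
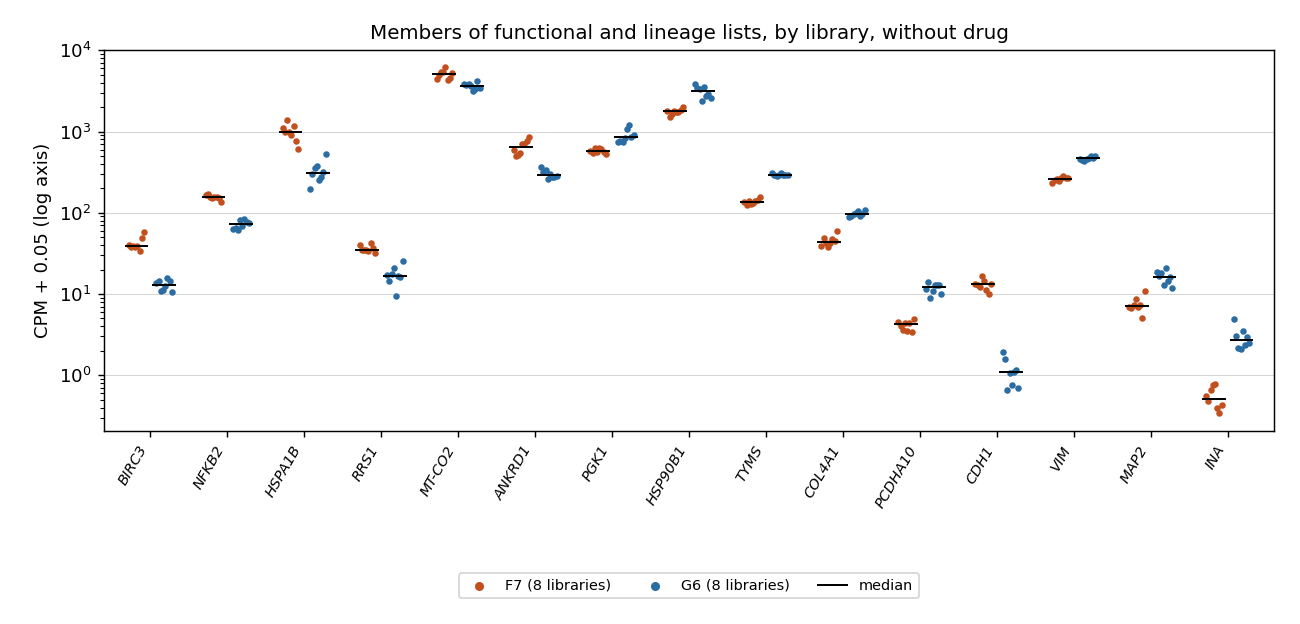
Levels of 15 list members in CPM + 0.05 on a log axis, 1 point per library (8 of F7 left, 8 of G6 right), with a bar at the median. BIRC3 to ANKRD1 and CDH1 lie higher in F7, and PGK1 to PCDHA10, VIM, MAP2 and INA lie lower, in each case with no F7 library inside the G6 range. The 15 were picked for display and do not stand for their lists. Of all genes tested 10.4% did not overlap, and of 13 mitochondrially encoded mRNAs only 1.

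Ribosome biogenesis genes, which make and assemble ribosomal RNA and proteins in the nucleolus, were mostly higher in F7. The counts were 23 higher and 1 lower of 30 tested, beside 16.9% of all genes called higher, with a median of 0.43. RRS1, an assembly factor of the large subunit, had 32.2, 34.9 and 42.04 CPM in F7 libraries, against 9.39, 16.8 and 25.4 CPM in G6 libraries (log2 1.07 ± 0.14, adjusted p = 4.42e-06). BYSL, a factor of the small subunit, had 64.4, 68.9 and 73.8 CPM in F7 libraries, against 33.5, 40.4 and 52.99 CPM in G6 libraries. POLR1B, a subunit of RNA polymerase I, had 112.3, 118.1 and 129.8 CPM in F7 libraries, against 74.5, 80.6 and 87.8 CPM in G6 libraries. MYC, which drives many of these genes, was higher at a low level (19.9, 21.7 and 22.9 CPM in F7 libraries, against 10.8, 13.6 and 16.5 CPM in G6 libraries), and NOP16 and WDR43 rose by log2 0.67 and 0.50. The median was 0.44, 0.40 and 0.27 within L01, L02 and L03, and 0.36 under drug with 24 higher and 3 lower. Genes of the ribosomal proteins themselves moved both ways (5 higher and 10 lower of 32 tested), with RPL37 higher (log2 0.66) and RPL3, RPL4 and RPL7A lower (-0.38, -0.36 and -0.38). Their balance turned with the name prefix: 7 higher and 3 lower within L01, 3 higher and 1 lower within L02 and 3 higher and 16 lower within L03. RPL3 and RPL7A lost their calls within L02.

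Glycolysis and hypoxia genes were mostly lower in F7 (2 higher and 20 lower of 31 tested, median -0.35). PGK1, phosphoglycerate kinase, had 532, 569.9 and 632 CPM in F7 libraries, against 749, 849 and 1213 CPM in G6 libraries (log2 -0.61 ± 0.08, adjusted p = 3.67e-06). The hypoxia-induced genes ANKRD37, EGLN3 and BNIP3L were lower, at log2 -1.26, -0.81 and -0.79 (BNIP3L at -0.22 with no call within L03), and PKM and PGAM1 at -0.43 and -0.40. The median was -0.49 among untreated libraries and -0.22 among DMSO libraries. Mitochondrially encoded mRNAs were mostly higher (8 higher and 0 lower of 13 tested, median 0.34). MT-CO2, a subunit of cytochrome oxidase, had 4269, 5083 and 6186 CPM in F7 libraries, against 3154, 3673 and 4147 CPM in G6 libraries. It was the only 1 of the 13 with no overlap, and it was not called within L02 (log2 0.20). Summed levels of the 13 overlapped, at 29955.5 to 44513.4 CPM in F7 and 28101.2 to 35155.1 CPM in G6. The differences of mitochondrially encoded mRNAs varied with the name prefix: the median was 0.34 within L01, -0.01 within L02 and 0.54 within L03. For nuclear-encoded oxidative phosphorylation genes the counts were 7 higher and 1 lower of 33 tested, but the median was 0.28, 0.23 and -0.13 within L01, L02 and L03, and 15 were higher without G6 replicate 4. The list had 24.2% of members called, below the 35.9% of all genes. NDUFS3 (log2 0.52), ATP5F1A (log2 0.50) and SDHA (log2 0.39) were higher with no overlap, though NDUFS3 and SDHA were not called within L03. SDHA lies in a 10 Mb stretch of chromosome 5 with a median log2 change of 0.53 over its tested genes. ATP5F1A lies in a stretch of chromosome 18 with a median of 0.50.

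Among protein folding genes, most calls were higher in F7 for cytosolic heat shock genes and lower for the unfolded protein response, and the difference between the lists was not tested. Cytosolic heat shock genes had 13 higher and 1 lower of 22 tested, with a median of 0.26. HSPA1B, an inducible HSP70, had 613, 988 and 1375 CPM in F7 libraries, against 195, 309 and 529 CPM in G6 libraries (log2 1.59 ± 0.17, adjusted p = 3.3e-07). Its near-identical copy HSPA1A can share its reads, so the pair is uncertain one by one. HSPH1 (log2 0.77) and HSPA8 (log2 0.38) were higher and HSPA2 (log2 -1.68) was lower. Genes of the unfolded protein response of the endoplasmic reticulum had 3 higher and 11 lower of 24 tested (median -0.21). HSP90B1, the chaperone GRP94, had 1497, 1764 and 2012 CPM in F7 libraries, against 2375, 3149 and 3833 CPM in G6 libraries (log2 -0.81 ± 0.08, adjusted p = 2.37e-07). HSPA5 (log2 -0.43), CALR (log2 -0.50), DNAJC3 (log2 -0.75) and EDEM1 (log2 -0.63) were lower with no overlap, while the stress sensor ERN1 was higher (log2 0.69). Targets of ATF4, the factor of the integrated stress response, had 8 higher and 13 lower of 30 tested, and 5 higher and 3 lower within L01. Of these, SLC3A2, DDIT3 and ATF3 were higher (0.58, 0.52 and 0.44) and ALDH1L2, DDIT4 and VLDLR lower (-1.30, -1.08 and -0.62).

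NRF2 and glutathione genes had 4 higher and 3 lower of 27 tested, a share below that of all genes, and 3 higher and 8 lower within L03. In sterol and fatty acid synthesis (5 higher and 8 lower of 29 tested) the desaturases FADS1 (198, 212 and 225 CPM in F7 libraries, against 279, 312 and 342 CPM in G6 libraries) and FADS2 (log2 -0.64) were lower, and DHCR7 (log2 0.56, not called within L03 at 0.10) and HMGCS1 (log2 0.44) were higher. Drug transporters and detoxification enzymes differed often (10 higher and 11 lower of 31 tested). ABCB1, the efflux pump P-glycoprotein, had 33.8, 38.2 and 39.7 CPM in F7 libraries, against 17.1, 20.3 and 24.04 CPM in G6 libraries (log2 0.90 ± 0.09, adjusted p = 8.78e-08). CYP1A1, induced by the aryl hydrocarbon receptor, had 13.3, 17.4 and 20.8 CPM in F7 libraries, against 4.54, 6.99 and 8.99 CPM in G6 libraries. ABCC4, an exporter of cyclic nucleotides, had 41.2, 43.2 and 46.8 CPM in F7 libraries, against 63.6, 77.5 and 86.05 CPM in G6 libraries, lower in F7. UGT3A2 was higher (log2 1.51) and GSTO2 lower (log2 -1.41).

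Genes of the G1/S transition and DNA replication were called lower in F7 more often than higher (2 higher and 16 lower of 32 tested, median -0.18). TYMS, thymidylate synthase, had 123.5, 137 and 155 CPM in F7 libraries, against 287, 290.2 and 309.9 CPM in G6 libraries (log2 -1.10 ± 0.05, adjusted p = 1.67e-12). RRM1, the large subunit of ribonucleotide reductase, had 349.9, 382 and 432 CPM in F7 libraries, against 539, 656 and 739 CPM in G6 libraries. CDK inhibitors CDKN2C (log2 -0.81) and CDKN1B (log2 -0.60) and cyclin CCNE2 (log2 -0.91) were lower, and cyclin CCND1 was higher (log2 0.47). Genes of G2/M and mitosis were split (7 higher and 9 lower of 30 tested, beside 16.9% and 19% of all genes), with NUSAP1 lower (log2 -0.73) and CDC20 (log2 0.37), PLK1 (log2 0.33) and KIF20A (log2 0.24) higher. The balance turned with the name prefix: 3 higher and 10 lower within L01, 3 higher and 12 lower within L02 and 9 higher and 5 lower within L03. CDC20 and PLK1 were not called within L03, at log2 0.09 and 0.03. PLK1 also lost its call in untreated libraries alone. KIF20A lost its call within L01 and L02, in untreated libraries alone and in DMSO libraries alone. No cell cycle phase was measured.

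Homologous recombination and Fanconi anaemia genes had 3 higher and 14 lower of 29 tested, with a median of -0.20. It was -0.25, -0.23 and 0.12 within L01, L02 and L03. FANCI had 284, 292 and 299 CPM in F7 libraries, against 355, 406 and 429 CPM in G6 libraries and RAD54L had 53.1, 61.5 and 66.8 CPM in F7 libraries, against 73.6, 83.96 and 88.4 CPM in G6 libraries, both lower with no overlap. Genes that act on topoisomerase I lesions and single-strand breaks, the process TDP1 belongs to, had 4 higher and 6 lower of 29 tested, near the share of all genes, and 10 higher and 8 lower within L03. DNA ligase LIG1 had 53.4, 66.4 and 75.9 CPM in F7 libraries, against 87.6, 103.01 and 124.7 CPM in G6 libraries (log2 -0.65 ± 0.08, adjusted p = 4.89e-06). PARP2 (log2 -0.44) and the flap nuclease FEN1 (log2 -0.28) were lower too. SPRTN, a protease of DNA-protein crosslinks, RBBP8, a nuclease cofactor, and TOP3A were higher, by log2 0.41, 0.38 and 0.38. SPRTN, RBBP8 and FEN1 lost their calls within L01 and L02, TOP3A within L01 and L03, and PARP2 within L03. SPRTN also lost its call in DMSO libraries alone, and RBBP8 and FEN1 in untreated libraries alone.

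p53 target genes had 11 higher and 1 lower of 30 tested, beside 16.9% and 19% of all genes. Without G6 replicate 4, 13 were higher and 6 lower. AEN, an exonuclease, had 190.4, 210.4 and 222 CPM in F7 libraries, against 119.4, 140.5 and 164 CPM in G6 libraries. GADD45A (log2 0.54), PLK3 (log2 0.56), BTG2 (log2 0.36) and PPM1D (log2 0.34) were higher, and CCNG1 was lower (log2 -0.66), but at -0.11 with no call within L03. In HEK293 cells p53 is bound by viral proteins, and its activity was not measured here. Apoptosis regulators had 5 higher and 9 lower of 31 tested, beside the same shares of all genes. The decoy death receptor TNFRSF10D had 161, 170.0 and 180.3 CPM in F7 libraries, against 69.8, 82.5 and 87.2 CPM in G6 libraries. The pro-apoptotic genes BMF (log2 -1.12), PMAIP1 (log2 -0.58) and APAF1 (log2 -0.64) were lower in F7, and so was the survival gene BCL2L2 (log2 -0.46).

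Genes of the silencing machinery were lower more often than higher in F7 (2 higher and 11 lower of 35 tested, beside 16.9% and 19% of all genes). The share called in either direction was 37.1%, near the 35.9% of all genes. The median was -0.13, but -0.05 in untreated libraries, and within L03 there were 7 higher and 13 lower. CBX5, heterochromatin protein 1 alpha, had 145, 159 and 163 CPM in F7 libraries, against 217, 270.4 and 313 CPM in G6 libraries (log2 -0.74 ± 0.07, adjusted p = 5.41e-08). The histone deacetylase HDAC1 (log2 -0.31) was lower with no overlap. TET2, which oxidises methylcytosine, was lower (log2 -0.60) and the methyl-CpG-binding MBD2 was higher (log2 0.41). TET2 lost its call within L03 (log2 -0.22) and in untreated libraries alone, and HDAC1 within L01. MBD2 lost its call within L01 and L02 and in DMSO libraries alone. Zinc finger genes of chromosome 19, most of which encode KRAB repressors of transposable elements, had 11 higher and 68 lower of 233 tested, beside the same shares of all genes. ZNF723 was near 0 in F7 (0.0527, 0.233 and 0.386 CPM in F7 libraries, against 0.752, 1.92 and 4.30 CPM in G6 libraries). ZNF83, ZNF611 and ZNF615 were lower, at log2 -0.82, -0.86 and -0.83. This list depended on the libraries: 45 were lower without G6 replicate 1, and within L03 32 were higher and 17 lower.

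Neighbouring genes shifted together along several chromosomes. Over chromosome 14, where TDP1 lies, 241 of 514 tested genes were lower in F7 and 21 higher, with a median log2 change of -0.28. Chromosome 15 had 250 lower and 29 higher of 585 (median -0.25), and chromosome 13 had 39.5% lower and 9.80% higher of 306 (median -0.25). Without G6 replicate 1 the median of chromosome 13 was -0.16. Chromosome 17 had 318 higher and 68 lower of 1025, and chromosomes 17 and 18 shared a median of 0.18. For chromosomes 7, 14, 15 and X the per-library medians of F7 and G6 did not overlap. DNA copy number was not measured.

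**Figure D4:**
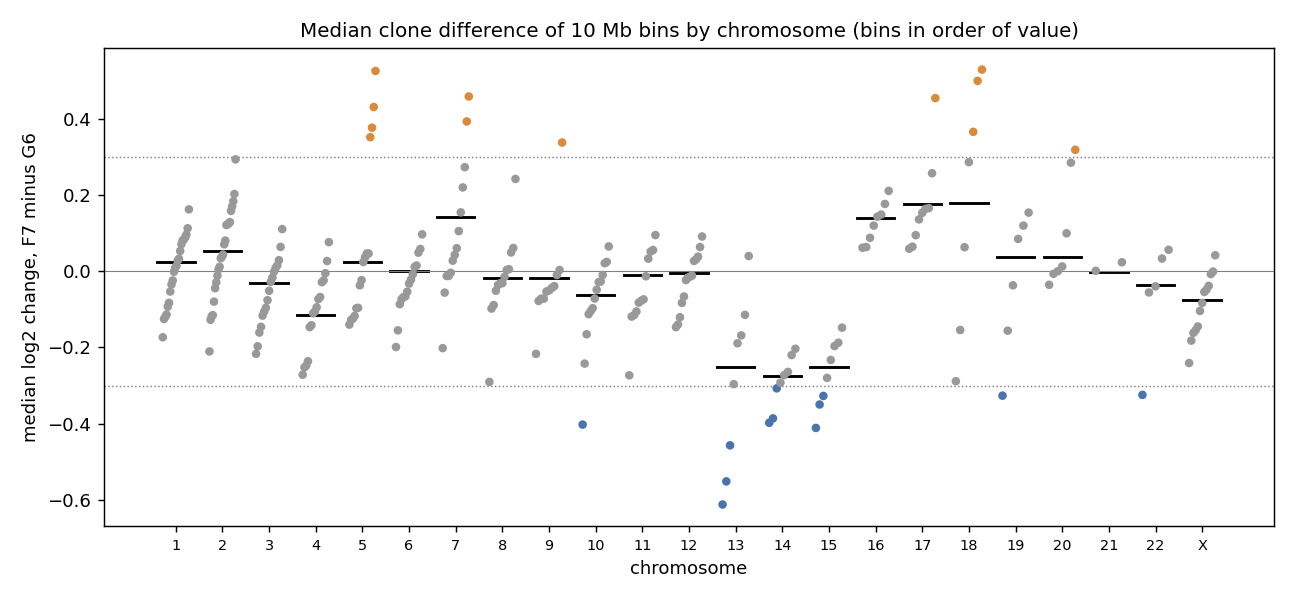
Median log2 change, F7 minus G6, of each 10 Mb bin with at least 20 tested genes, by chromosome, with bins in order of value and a black bar at the chromosome median. Bins above 0.3 (12) lie on chromosomes 5, 7, 9, 17, 18 and 20, and bins below -0.3 (12) on chromosomes 10, 13, 14, 15, 19 and 22.

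Of 269 bins of 10 Mb, 24 had a median beyond 0.3 in either direction, 12 of each sign. All 24 had the same sign under drug, in libraries that had no part in picking the bins. The sign was also the same among untreated and among DMSO libraries. Those libraries had picked the bins, so that agreement was close to given. In 19 of the 24, the per-library medians of the clones did not overlap among the same 16 libraries. The lowest was the end of chromosome 13, 110 to 120 Mb (hg38), at -0.61, with 27 of 37 genes lower and 0 higher. TFDP1, a partner of E2F factors, had 105.05, 111.98 and 116.4 CPM in F7 libraries, against 149.5, 188 and 206 CPM in G6 libraries there, and COL4A1 and COL4A2 lie in the same bin. The 2 bins before it had medians of -0.55 and -0.46. The highest was 30 to 40 Mb of chromosome 18 at 0.53, between bins at 0.37 and 0.50. SMAD2, a signal transducer of TGF-beta receptors, had 74.3, 80.5 and 86.4 CPM in F7 libraries, against 50.8, 57.8 and 61.5 CPM in G6 libraries on that stretch.

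Chromosome 5 was raised in F7 over 0 to 20 Mb and 30 to 50 Mb, with medians of 0.53, 0.35, 0.38 and 0.43. The bin at 10 to 20 Mb was mixed, with 12 of 29 genes higher and 8 lower, and its per-library medians overlapped between the clones. NSUN2, an RNA methyltransferase, had 347, 379.7 and 407 CPM in F7 libraries, against 197, 217 and 240.0 CPM in G6 libraries and CCT5, a chaperonin subunit, had 1063, 1184 and 1246 CPM in F7 libraries, against 715, 803 and 881 CPM in G6 libraries. On chromosome 7 the first 10 Mb stood at 0.46, with 50 of 82 genes higher and 1 lower, and ACTB, often used as a loading control, was higher in F7 (1351, 1548 and 1682 CPM in F7 libraries, against 827, 1036 and 1287 CPM in G6 libraries). Chromosome 17 had a median of 0.46 over its first 10 Mb, with 58.2% of 177 genes higher and 2.82% lower. YWHAE, a 14-3-3 protein, had 917, 975.02 and 1079 CPM in F7 libraries, against 681, 735 and 757 CPM in G6 libraries. On chromosome 14 the bins at 30 to 40, 50 to 60 and 60 to 70 Mb stood at -0.31, -0.40 and -0.39, where SRSF5 (log2 -0.40), PYGL (log2 -0.35) and MTHFD1 (log2 -0.34) were lower. Bins on chromosome 15 at 20 to 30, 30 to 40 and 50 to 60 Mb stood at -0.33, -0.35 and -0.41. UBE3A, a ubiquitin ligase gene that is imprinted in neurons, was lower there (log2 -0.54), but at -0.10 with no call within L03.

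By the edgeR test the clone difference depended on vehicle for 1 of 17275 genes (0.00579%). The gene, CCN1, a matrix protein and YAP target outside the naming rule that is named because the count is 1, averaged 228 CPM in untreated F7 and 117 CPM in untreated G6. In DMSO the means were 166 CPM in F7 and 170 CPM in G6 (interaction log2 -0.9996 ± 0.15, adjusted p = 0.0321). At an unadjusted p under 0.05, 459 of 17275 genes passed, a smaller share than the 0.05 that chance alone would give. Without a low-count filter 6 genes passed the adjusted threshold. With 1 replicate left out in turn the number of such genes was 0 to 5. It was 0 with a replicate block and without F7 replicate 2, 3 or 4 or G6 replicate 1, 2 or 3, so the call for CCN1 rests on those libraries.

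The same comparison among 24 libraries given topotecan, OL9-119 or both used other libraries of the same clones, with cultures perhaps shared through the replicate number. Of 18025 genes tested there, 44.6% differed: 3892 (21.6%) were higher and 4151 (23%) lower in F7. Of the genes called without drug and tested in both, 2395 of 2914 (82.2%) were also higher and 2833 of 3280 (86.4%) also lower under drug. These were 63.4% and 68.9% of the calls under drug, and 2 and 0 genes were called in the opposite direction. MAGEA12 differed by log2 6.63 under drug, CDH1 by 3.65, ARMCX4 by -6.41 and TYMS by -1.06. HSPA1B differed by 0.74, against 1.59 without drug, and ATF3 and DDIT3 did not pass under drug (0.01 and -0.09).

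**Figure D5:**
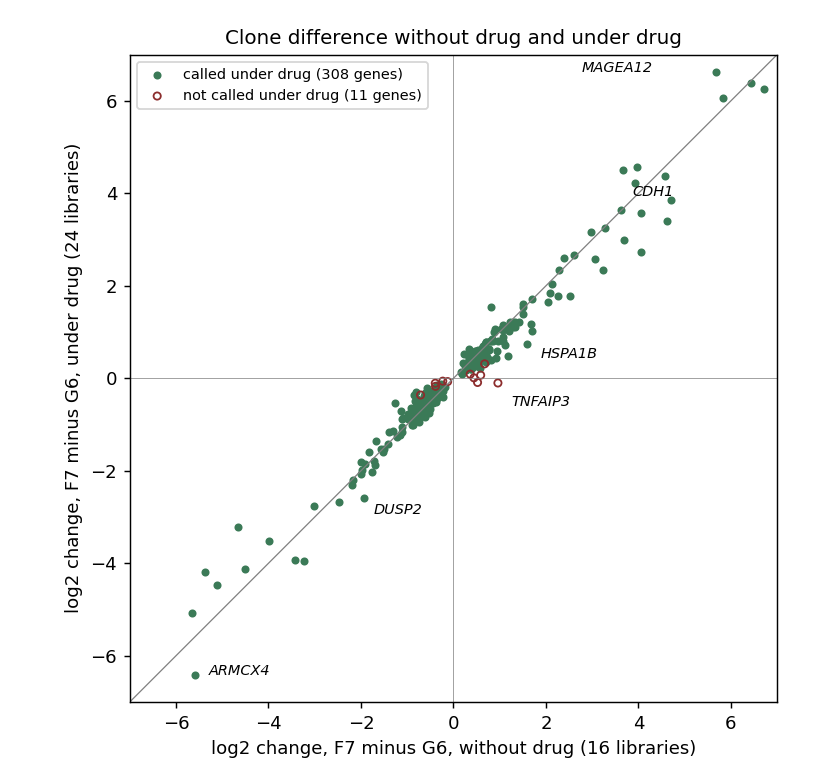
Log2 change, F7 minus G6, of 319 genes that meet the naming rule, without drug (16 libraries, x axis) and under drug (24 libraries, y axis), with the line of equality. Filled points (308 genes) were called under drug and open ones (11 genes) were not, among them TNFAIP3, which lies at -0.10 under drug.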

How the data were processed

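The authors deposited 1 table of raw counts per gene for 60 libraries, of which 16 were compared. Per the submitters' processing notes, the build was hg38 and the tools were STAR 2.7.8, Picard 2.26.6 and FastQC 0.11.9. How genes were counted (tool, annotation, strand) is not given in the sources used here. Of 58395 gene IDs, 58275 were matched to GENCODE 29. Counts were tested as deposited with edgeR 4.0.16 (R 4.3.3): quasi-likelihood test, TMM scaling, clone and vehicle as terms, Benjamini-Hochberg adjustment over 17275 genes kept by the low-count filter, threshold 0.05. The method was tested on simulated data. Limits on CPM (1, 0.2 and pooled 0.3), and ratio intervals, cover counting error only. Members and gene lists were chosen with earlier results of these data known.

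Named genes are TDP1 and TOP1, the 12 largest non-overlapping changes each way at 8 CPM or more, near-silent genes, up to 6 called members of a list by smallest p, and up to 2 genes of each 10 Mb bin beyond 0.3. Not every gene under this rule is reported here. Genes near-silent by the pooled limit, HSPA1A, ITGAM, PDGFRB and CCN1 were chosen after their values were seen. Alternatives used DESeq2 1.42.0, limma 3.58.1, other scaling, no filter, subsets and omitted replicates. Promoter windows are RefSeq (GRCh38.p14). Replicate numbers did not pair F7 with G6.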

Additional observations from a re-analysis of the deposited data

Results flagged for a closer look

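In 35 of 456 sets of 8 libraries examined (values of the named genes, detection, and shares of mitochondrial and top genes, in F7 and in G6), 1 library lay far from the other 7 by the 95% limit of the Dixon gap test. Chance flags about 1 set in 20, here 22.8 sets. The untreated F7 replicate 4, the shallowest F7 library with 5220831 counts, was that library in 11 sets, with the highest F7 values of CDCP1 at 0.386 CPM, LAYN at 9.84 CPM, COL4A1 at 60.4 CPM, TET2 at 26 CPM, FGFR2 at 52.1 CPM, JAG1 at 61.7 CPM, NOP16 at 51.9 CPM, INHBA at 12.2 CPM, UGT3A2 at 17.8 CPM, TEX101 at 4.44 CPM and CTPS2 at 5.21 CPM. The untreated G6 replicate 1, 1 of the 2 libraries of low detection, had the highest G6 values of ARMCX4 at 20.4 CPM, GPRASP1 at 13.6 CPM, ZIC5 at 75.4 CPM, GRHL1 at 17.6 CPM, TNFAIP3 at 41.4 CPM and MAGEA12 at 0.86 CPM. The G6 replicate 1 in DMSO, the other one, had the highest G6 values of FZD1 at 47.7 CPM, SRSF5 at 324 CPM, MBD2 at 55.6 CPM and HMGCS1 at 211 CPM and the lowest PTCH1 at 38.3 CPM. In F7 the remaining sets had their high value in DMSO replicate 2 for DLGAP1 at 0.858 CPM, DMSO replicate 3 for FOXE1 at 0.35 CPM, DMSO replicate 4 for PCDHB10 at 5.81 CPM, untreated replicate 1 for BTG2 at 76.4 CPM, untreated replicate 2 for FOSB at 23.4 CPM, untreated replicate 3 for C14orf39 at 0.435 CPM, ALDH1L2 at 8.85 CPM and ITGA4 at 14.8 CPM. In G6 the remaining sets had their high value in DMSO replicate 2 for KIF20A at 139 CPM and GALC at 0.256 CPM, untreated replicate 2 for RHOXF1-AS1 at 0.23 CPM, untreated replicate 3 for ULK2 at 29.3 CPM and CSAG1 at 0.548 CPM. All 16 libraries enter the values given, and refits without each replicate are counted with the alternatives. The difference between clones depended on vehicle for CCN1 by the test of the interaction (log2 -0.9996, adjusted p = 0.0321, edgeR), with means of 228 CPM in F7 and 117 CPM in G6 among untreated libraries and 166 CPM in F7 and 170 CPM in G6 among DMSO libraries. That call was lost with a replicate block and without F7 replicate 2, 3 or 4 or G6 replicate 1, 2 or 3.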

How the results depend on the processing

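Counts of genes higher and lower in F7 (2921 and 3285) stayed within 1.5 times under RLE scaling, DESeq2, no low-count filter, a block on the name prefix, voom, summed vehicles and the fit to 60 libraries. They were 1376 and 1762 within L01 (2 F7 against 4 G6 libraries), 1213 and 1393 in untreated libraries alone, and 1377 and 1707 in DMSO libraries alone, each with fewer samples. Leaving out 1 replicate gave 2142 to 4038 higher and 2454 to 3924 lower. With a replicate block they were 2959 and 3075, and same-numbered libraries of the clones did not deviate together (correlations of -0.73 to 0.37), so the numbers do not pair F7 with G6. Within a clone, same-numbered DMSO and untreated libraries correlated at -0.25 to 0.53 in F7 and at 0.046 to 0.84 in G6, so they are not all independent. The count of genes whose difference depended on vehicle was 0 with the replicate block, 6 without a low-count filter and 0 to 5 with a replicate left out.

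Genes on in F7 and off in G6 numbered 0 at 2 and 0.1 CPM, 3 at 0.5 and 0.2 CPM, 2 without the low-detection libraries, 1 to 3 with a replicate left out, and, added after seeing the data, 17 by the pooled limit (18 without the low-detection libraries). Genes off in F7 and on in G6 numbered 2 at 0.5 and 0.2 CPM, 1 without the low-detection libraries, 0 to 2 with a replicate left out, 5 by the pooled limit and 9 without the low-detection libraries. Of 4948 refits of single genes named in the text, 4804 kept direction and call, 141 lost the call and 1 gained it. The other 2 reversed: TOP1 within L03 (log2 0.21) and CCN1 in DMSO alone (log2 -0.033), and the cause was not tested. Most named genes were picked by their values in the same 16 libraries, which the refits largely reuse. The share of refits that kept the call therefore does not describe all genes called. Depth limits values under 0.3 CPM, which rest on a few reads. The L03 libraries hold 1 G6 replicate number only, the L01 libraries 1 F7 number only, and the L02 libraries 1 number of each clone.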
